A study of Danio rerio with 2 samples.

Results

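The SoxF genes sox7, sox17, sox18 and sox32 code for transcription factors of the SRY-box (Sox) family, which bind DNA through a high mobility group domain. They were found by protein name or gene identifier among the 22017 zebrafish genes with at least 1 read, and all 4 members were listed, each with 1 transcript. RNA was sequenced from cells with EGFP (GFP+) and cells without it (GFP-), separated by flow sorting of zebrafish embryos of the line Tg(fli1a:EGFP)y1 aged 22 to 24 hours post fertilization (hpf). Both groups came from the same transgenic line, in which the fli1a promoter drives EGFP, and 1 library was sequenced per group. This promoter is known to be active in endothelial cells and also in blood precursors and pharyngeal arch tissue, so the GFP+ gate can hold such cells too. The number of embryos pooled is not given in the sources used here. With 1 library each, the values below have no replicate check, the tests compare these libraries and not the conditions, and intervals cover counting error only.

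In zebrafish, sox7 and sox18 are known to act together in endothelial cells during the separation of arteries and veins, and in mouse Sox17 is known for its part in arterial identity and Sox18 for switching on Prox1 in lymphatic precursors. sox32, also called casanova, is a fish gene that works with Pou5f3 downstream of Nodal signals to specify the endoderm and to switch on sox17. The Notch ligand gene dll4 is a known SoxF target in arterial endothelium.

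The GFP+ library held 4441335 uniquely mapped reads and the GFP- library 4105672. Genes were called higher or lower in GFP+ cells with a log2 ratio above 1 or under -1 and an adjusted p under 0.001 by Fisher's exact test, which gave 6.77% of the 22017 genes as higher and 7.39% as lower (1491 and 1627 genes). Scaling to the beta-actin genes in place of the library totals gave 2309 higher and 951 lower. Of 14 endothelial markers, 12 had at least 10 reads over both libraries and 11 of these were higher in GFP+ cells, with a summed level of 2508 reads per 1000000 reads of the library (RPM) in GFP+ cells, against 133 RPM in GFP- cells. The defining endothelial markers cdh5 (VE-cadherin) and tek (the Tie2 receptor) were nearly absent, with 5 and 7 reads in GFP+ cells, against 0 in GFP- cells, whereas pecam1 had 628 and 0 reads. All 11 red cell markers were also higher in GFP+ cells (summed level 36258 RPM in GFP+ cells, against 379 RPM in GFP- cells), and hemoglobin transcripts took 6.59% of the GFP+ reads and 0.0553% of the GFP- reads. Of 5 myeloid markers with at least 10 reads, 4 were higher (all listed markers, 189 RPM in GFP+ cells, against 20.9 RPM in GFP- cells). None of the 8 neural, 5 muscle and 7 neural crest and arch markers with at least 10 reads was higher. The part of the blood lineages in the SoxF values was not tested. In sorted bulk samples, fewer cells of a type and less RNA per cell cannot be told apart.

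Of the 4 SoxF genes, 2 were called higher in GFP+ cells and none lower, where 6.77% and 7.39% of all genes were, and sox18 took nearly all SoxF reads. It had 1249 reads in GFP+ cells, against 20 in GFP- cells. Per length of transcript this was 184 RPM per kilobase (RPKM; 95% Poisson interval 174 to 194) in GFP+ cells, against 3.18 RPKM (1.94 to 4.92) in GFP- cells, so the intervals lay far apart. The RPM ratio was 57.7-fold (95% Clopper-Pearson interval 37.2 to 94.8), with a log2 ratio of 5.82 and an adjusted p of 3.86e-316 by Fisher's exact test. By RPKM it was the 370th of 20282 genes with a read in GFP+ cells, and the 9807th of 20263 in GFP- cells. Its log2 ratio was the 80th highest of the 1491 genes called higher.

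The GFP- level of sox18 was 1.73% of its GFP+ level. The same percentage had a median of 2.89 and a range of 0 to 87.8 over the 12 endothelial markers with 10 or more reads, of which 5 were below sox18. Over the 11 red cell markers it had a median of 1.17 and a range of 0 to 4.30, of which 9 were below sox18. The few sox18 reads in GFP- cells covered 663 of the 1530 bases of its transcript (43.33%), against 1528 bases (99.87%) in GFP+ cells. The GFP- reads thus did not come from a single site. The transcript, ENSDART00000132992 of gene ENSDARG00000058598, lies on the forward strand of chromosome 23 (8904032 to 8906769, build Zv9). Its protein is listed in the files only under a clone name, and the symbol sox18 came from the gene identifier.

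sox17 was also higher in GFP+ cells, at a far lower level. It had 19 reads in GFP+ cells against a single read in GFP- cells, or 2.60 RPKM (1.57 to 4.06) in GFP+ cells, against 0.148 RPKM (0.00375 to 0.825) in GFP- cells. The RPM ratio was 17.6-fold, with an interval of 2.79 to 730 that reflects the single GFP- read. The log2 ratio was 3.59 with an adjusted p of 0.000246 by Fisher's exact test. When edgeR's exact test was given a biological coefficient of variation of 0.4, an assumed value, this call was lost (adjusted p = 0.193), and with 5 reads added in place of 0.5 the log2 ratio was 1.89. The 19 reads covered 578 of 1645 bases (35.14%), so they did not come from a single site, and the GFP- read covered 49 bases. sox17 ranked 10553rd by RPKM in GFP+ cells and 19286th in GFP- cells. Its transcript, ENSDART00000008864 of ENSDARG00000041345, lies on the reverse strand of chromosome 7 (65288994 to 65291982, Zv9).

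sox7 was nearly absent from both libraries, with 2 reads in GFP+ cells, against 0 in GFP- cells. The GFP+ level was 0.187 RPKM (0.0226 to 0.676), and 0 reads in GFP- cells allow up to 0.303 RPKM, the level of 3 reads. No difference was detectable at this depth (adjusted p = 0.688 by Fisher's exact test), and no fold is given. The 2 reads covered 50 bases of the 2408-base transcript (2.08%). A single read covered 49 bases in 3802 of the 3803 transcripts with 1 GFP+ read, so the 2 sox7 reads lay nearly on top of each other. Of 1934 transcripts with exactly 2 GFP+ reads, 126 (6.51%) covered 50 bases or fewer, and the median was 98. The transcript, ENSDART00000130271 of ENSDARG00000030125, lies on the forward strand of chromosome 20 (19139018 to 19150584, Zv9).

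sox32 had no read in GFP+ cells, against 1 read in GFP- cells. The GFP- level was 0.200 RPKM (0.00506 to 1.11), and 0 reads in GFP+ cells allow up to 0.554 RPKM. No difference was detectable at this depth (adjusted p = 0.682 by Fisher's exact test). The GFP- read covered 49 of 1219 bases. The transcript, ENSDART00000060597 of ENSDARG00000041341, lies on the reverse strand of chromosome 7 (65340359 to 65342023, Zv9), beside sox17, with 48376 bases and no listed transcript between them. These neighbouring genes thus had 0 and 19 reads in GFP+ cells and 1 read each in GFP- cells.

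**Figure D1:**
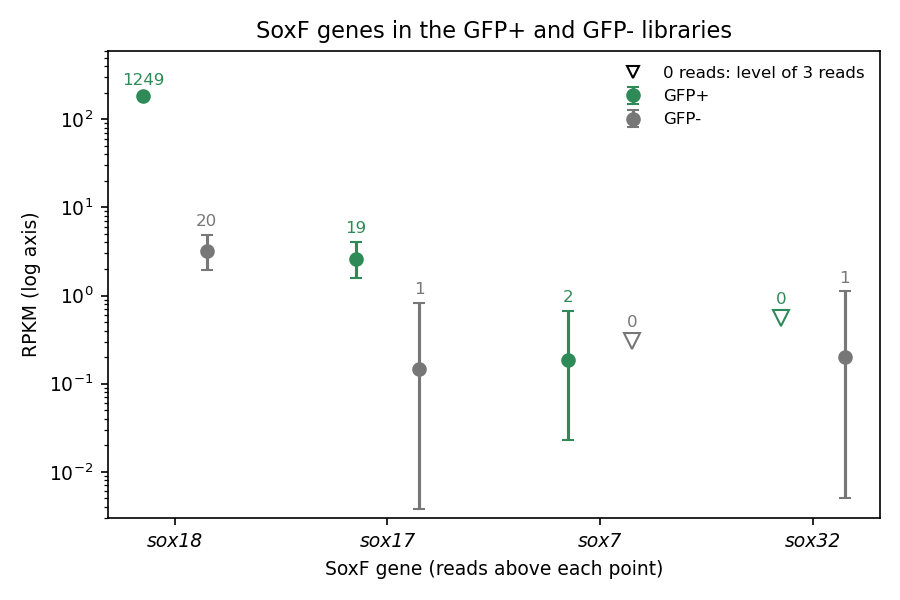
RPKM (log axis) of the 4 SoxF genes in the GFP+ library (green, left of each pair) and the GFP- library (grey), with 95% Poisson intervals and the reads above each point; open triangles mark the level of 3 reads where a library had 0. sox18 has 1249 reads in GFP+ cells, against 20 in GFP- cells, and sox17 has 19 against 1. sox7 and sox32 stay at 2 reads or fewer.

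Per length of transcript, sox18 was highest in GFP+ cells and sox17 next. sox18 was 70.7-fold (95% interval 45.1 to 118) above sox17, and sox17 was 13.9-fold (3.35 to 123) above sox7. The latter rests on 2 sox7 reads that covered only 50 bases. Its interval treats them as independent and may be too narrow. sox7 and sox32 could not be ordered within counting error. In GFP- cells sox18 was also highest, 21.5-fold (3.44 to 891) above sox17, while sox32, sox17 and sox7 had 1 read or none and could not be ordered. sox18 took 98.3% (97.5 to 99.0, exact Clopper-Pearson) of the 1270 SoxF reads in GFP+ cells and 90.9% (70.8 to 98.9) of the 22 in GFP- cells.

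Whether the members differed in their ratio between the libraries was examined for the 6 pairs by the conditional odds ratio of their reads. It was taken without added reads, so its log2 value can differ from a subtraction of the log2 ratios given above. For sox18 against sox17 the log2 odds ratio was 1.71, with an exact 95% interval of -3.73 to 4.51 that includes 0. The interval excluded 0 for 1 pair, sox18 against sox32 (lower bound 0.61), which rests on the single sox32 read. The other 4 pairs involve sox7 or sox32 and had no finite estimate, and their intervals included 0.

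**Figure D2:**
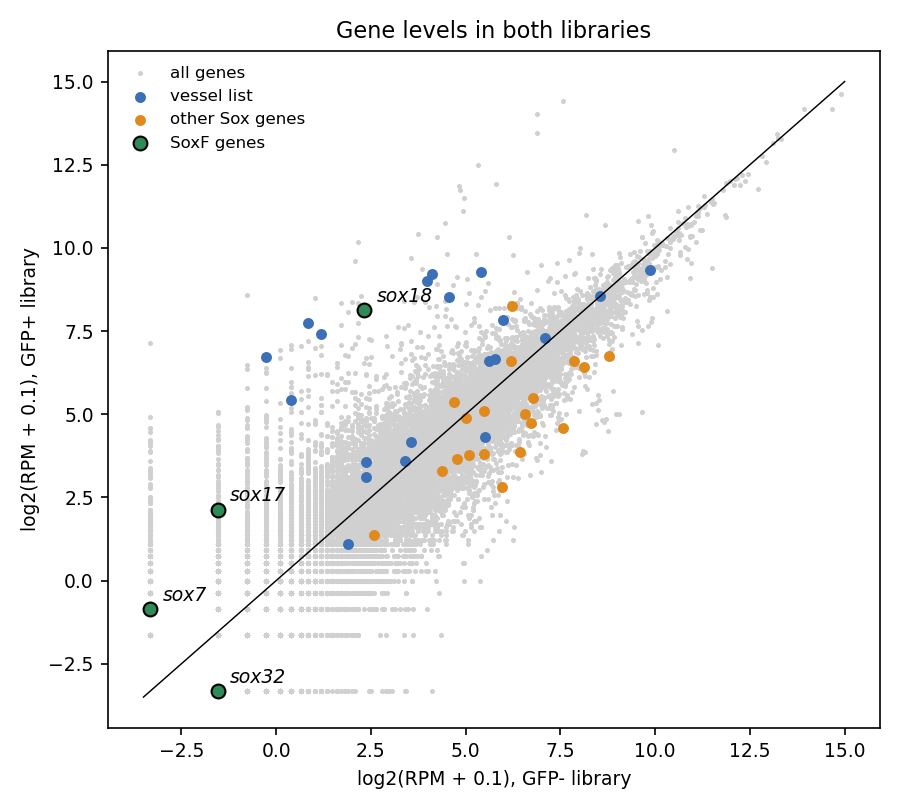
Levels of all genes as log2(RPM + 0.1) in the GFP+ library (vertical axis) against the GFP- library (horizontal axis), with SoxF genes in green, vessel genes in blue, other Sox genes in orange and the line of equal level. sox18 and sox17 lie above the line, and sox7 and sox32 lie at the edge of the plot among genes with few reads.

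The genes nearest to sox18 in level over the 2 libraries, among 10005 genes with a symbol and at least 10 reads, were clec14a (1429 reads in GFP+ cells, against 18 in GFP- cells), klf1 (1474 and 16) and slc25a37 (958 and 18). clec14a codes for an endothelial membrane lectin, klf1 for a red cell transcription factor and slc25a37 for the mitochondrial iron importer used in heme synthesis. Their distances on the log2(RPM + 0.1) scale were 0.24, 0.40 and 0.41. Near sox17, 5 genes had the same 19 reads in GFP+ cells, against 1 in GFP- cells, and the first 3 by symbol were taken. These were acod1, an enzyme gene of activated macrophages, and loci with clone names. Likeness over 2 libraries is a description only.

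The reads of sox18 and sox17 can be set against those of sparsely read endothelial markers by the bases they covered. The 19 sox17 reads covered 62.1% of the most bases that 19 reads can cover, and 63.6% of the 195 transcripts with 19 GFP+ reads were at or below this. The 2 sox7 reads covered 51.0% of the most possible, close to the least that 2 reads can cover. The 5 cdh5 reads covered 26.9%, or 66 bases, and 5.81% of the 740 transcripts with 5 reads were at or below this. The 7 tek reads covered 47.8%, or 164 bases, and 28.1% of the 581 transcripts with 7 reads were at or below this. sox7 and cdh5 therefore shared a low read number with reads piled on a short stretch. How uniquely mapped reads were chosen in these transcripts was not tested.

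**Figure D3:**
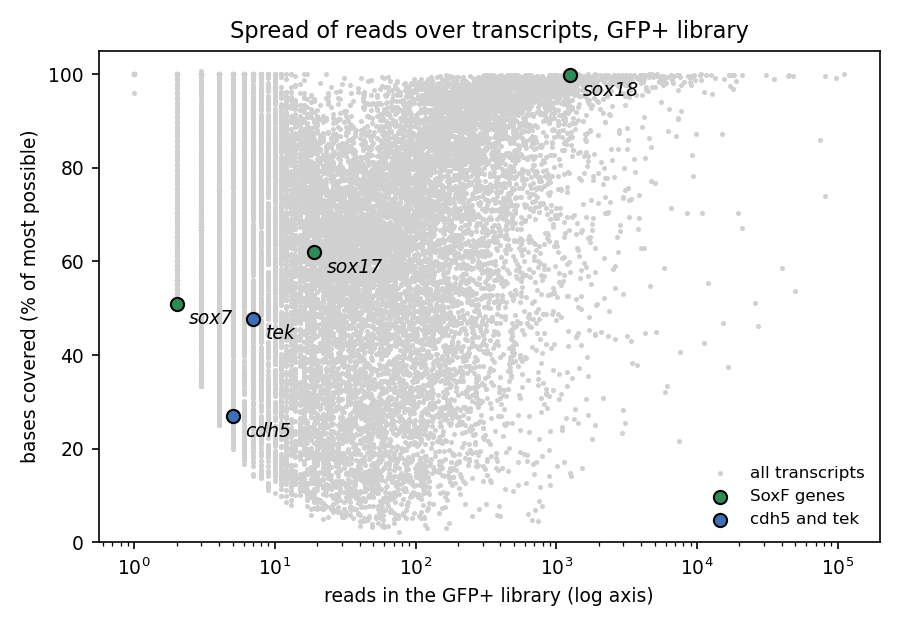
Bases covered, as percent of the most that the reads of a transcript can cover, against its reads in the GFP+ library (log axis), with SoxF genes in green and cdh5 and tek in blue. sox18 is covered nearly end to end, sox17 lies at 62.1%, and sox7 and cdh5 lie at 51.0% and 26.9% with 2 and 5 reads.

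Among the other Sox genes, most were lower in GFP+ cells, opposite to sox18 and sox17. Of 19 with 10 or more reads in total, 13 were lower, 1 was higher and 5 were not called, with a median log2 ratio of -1.29. Over the 15252 genes that reached this minimum, 10.7% were lower and 9.78% higher, with a median of -0.11. Scaled to beta-actin reads, 8 of the 19 were lower and 2 higher, and edgeR's exact test called none of them. The 6 SoxB1 genes, which are known for keeping neural progenitors undifferentiated, were all lower. They included sox3 (476 reads in GFP+ cells, against 1801 in GFP- cells), sox2 (377 and 1145) and sox19a (107 and 775). With beta-actin scaling sox1a of this group was no longer called. The lowest of all was sox21a, a SoxB2 gene, with 31 reads in GFP+ cells, against 257 in GFP- cells (log2 ratio -3.14).

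sox4a, a SoxC gene, was the only other Sox gene called higher with library totals. It had 1345 reads in GFP+ cells, against 309 in GFP- cells (log2 ratio 2.01, interval 1.83 to 2.19). Its close copy sox4b had 151 and 182 reads and was not called. sox9a and sox6 rose less, with log2 ratios of 0.69 and 0.41 and intervals above equal level. They were under the log2 threshold and not called, but the call of sox9a changed with beta-actin scaling. The log2 odds ratio of sox18 against sox4a was 3.84 (3.18 to 4.58), while that of sox17 against sox4a was 2.13 with an interval of -0.54 to 7.51. In level per length, sox18 was the highest in GFP+ cells of the 24 Sox genes with a read in either library, 1.79-fold (1.66 to 1.94) above sox4a. In GFP- cells sox3 was highest, and it was 78.5-fold (50.6 to 129) above sox18, which ranked 19th. SoxF genes took 22.3% (21.3 to 23.4) of the 5685 Sox reads in GFP+ cells and 0.270% (0.169 to 0.408) of the 8158 in GFP- cells. SoxB1 genes took 20.1% (19.0 to 21.1) in GFP+ cells, against 53.6% (52.5 to 54.7) in GFP- cells. The largest share in GFP+ cells was that of the SoxC genes, 35.9% (34.7 to 37.2), against 23.0% (22.1 to 24.0) in GFP- cells.

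**Figure D4:**
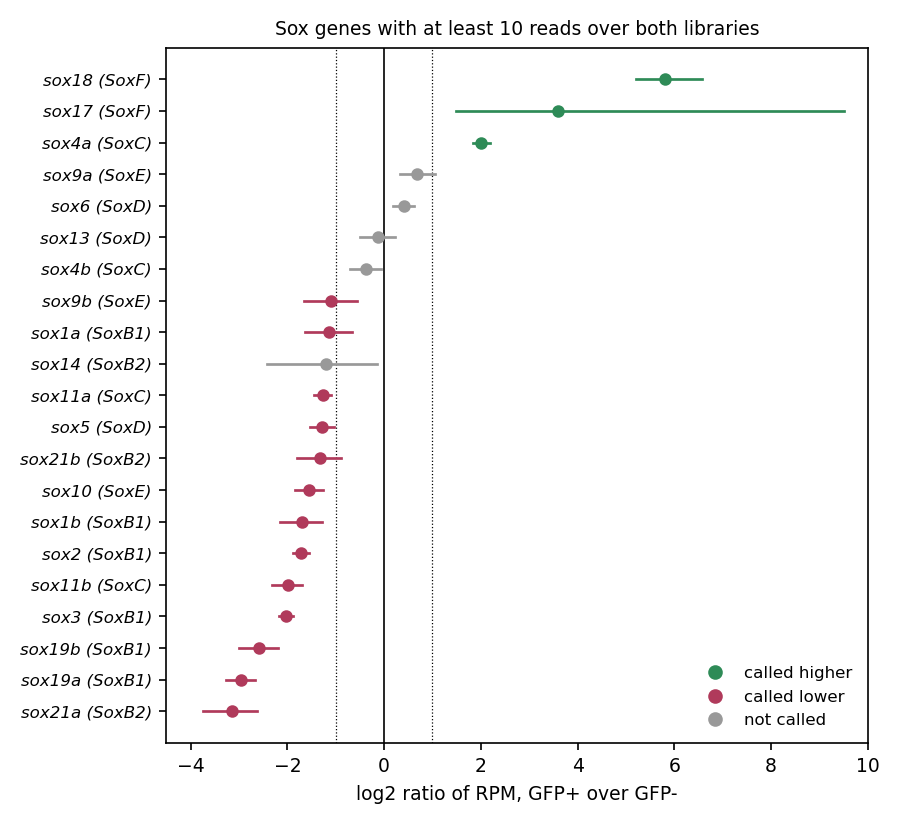
Log2 ratio of RPM, GFP+ over GFP-, for the 21 Sox genes with 10 or more reads in total, with the subgroup in brackets, points for the ratio with 0.5 reads added and lines for the 95% interval; dotted lines mark -1 and 1. sox18, sox17 and sox4a lie at the high end at 5.82, 3.59 and 2.01, and the 6 SoxB1 genes lie below -1.

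The genes that work upstream of SoxF factors or beside them in vessels varied widely. Of 12 with at least 10 reads, 7 were higher in GFP+ cells, 1 was lower and 4 were not called. Over the 15252 genes at this minimum, 9.78% were higher and 10.7% lower. The listed genes fli1b, flt4 and vegfab were not matched to any gene. kdr, a Vegf receptor gene, had the highest log2 ratio, with 472 reads in GFP+ cells, against 3 in GFP- cells (6.96). fli1a, whose promoter marks the sorted cells, had 753 and 9 reads (6.20). kdrl, the main zebrafish Vegf receptor gene in vessels, had 2640 and 71 reads (5.09). The Ets factor gene erg had 189 and 5 reads (4.99), and etv2, the Ets factor that starts the endothelial program, had 1020 and 261 reads (1.85), a call that edgeR's exact test did not make. tal1 and lmo2, shared by blood and endothelial precursors, had 2763 and 175 reads and 1629 and 96 reads. The Vegf ligand gene vegfaa was lower, with 88 reads in GFP+ cells, against 187 in GFP- cells (log2 ratio -1.20), a call that was lost with beta-actin scaling and in edgeR's exact test. mef2ca, a partner of Sox18 in mouse endothelium, had 691 and 563 reads and was not called.

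Of 8 vessel genes downstream of SoxF factors with at least 10 reads, 2 were higher in GFP+ cells and none was lower, where 9.78% and 10.7% of the 15252 genes at this minimum were. dll4 had 2285 reads in GFP+ cells, against 64 in GFP- cells (log2 ratio 5.03), and tie1, an endothelial receptor gene, had 950 and 7 reads (6.87). hey2, a Notch-responsive artery gene, had 433 and 200 reads and a log2 ratio of 0.999, just under the threshold, and was called higher under all 4 other scalings. cldn5a, a tight junction gene, had 447 and 223 reads (0.89) and was called higher with median-of-ratios and beta-actin scaling, so that 4 of the 8 were higher under these. efnb2a, an artery marker that other tissues also express, had 1686 reads in GFP+ cells, against 1543 in GFP- cells (0.01). vcam1b had 80 and 48 reads (0.62) and was not called. robo4 had 53 and 43 reads (0.19) and was the endothelial marker with at least 10 reads that was not called higher. The vein and lymphatic regulator gene nr2f2 had 9 and 15 reads (-0.82). notch1b, vcam1a, prox1a, ece1, tek and cdh5 had under 10 reads, among them prox1a with 0 reads in GFP+ cells, against 1 in GFP- cells. Over both vessel lists the median log2 ratio was 1.09 in 20 genes, and 9 of them (45%) were higher, against a median of -0.11 and 9.78% over the 15252 genes at the same minimum. With the other 4 scalings, 10 to 12 of the 20 were higher, vegfc among them with beta-actin scaling. Higher calls over all genes rose too, from 1491 to between 1658 and 2309. edgeR's exact test called 8 of the 20 higher, and 314 of all genes.

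The exact intervals of the log2 odds ratios place sox18 within this list. Its log2 ratio exceeded that of 16 of the 20 genes with an interval above 0, and the interval included 0 for the remaining 4, fli1a, erg, kdr and tie1. The log2 odds ratio was 0.75 (0.01 to 1.55) against kdrl, 0.81 (0.05 to 1.62) against dll4 and 3.997 (3.33 to 4.74) against etv2. Against fli1a it was -0.42 (-1.75 to 0.79). For sox17 the interval lay above 0 against 11 of the 20 and included 0 against 9, among them dll4 (-0.91, -3.61 to 4.49) and etv2 (2.28, -0.39 to 7.66).

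The endoderm list joins known regulators of sox32 and sox17 with other endoderm genes, such as those of the gut tube and pancreas. Its genes were lower in GFP+ cells or were not called, and the tissues their reads came from were not tested. Of 9 with at least 10 reads, none was higher in GFP+ cells, 4 were lower and 5 were not called, with a median log2 ratio of -1.54, against 9.78% higher, 10.7% lower and a median of -0.11 over all genes at this minimum. At that share of higher genes, a count of 0 among 9 is near the background. The 4 were foxa1 (32 reads in GFP+ cells, against 149 in GFP- cells), foxa2 (44 and 119), foxa3 (44 and 207) and pdx1 (15 and 74), transcription factor genes of the gut tube and pancreas, and edgeR's exact test called none of them. The listed genes ndr2, eomesa and hhex were not matched to any gene. The known regulators of sox32 and sox17 that were matched were low or level. gata5 had 41 and 39 reads, pou5f3 had 11 and 14, mixl1 had 3 and 5 and the Nodal ligand gene ndr1 had 1 and 6. The highest and lowest ratios were those of gata4 (13 and 2 reads, log2 ratio 2.32) and gata6 (2 and 12 reads, -2.44), neither of them called.

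**Figure D5:**
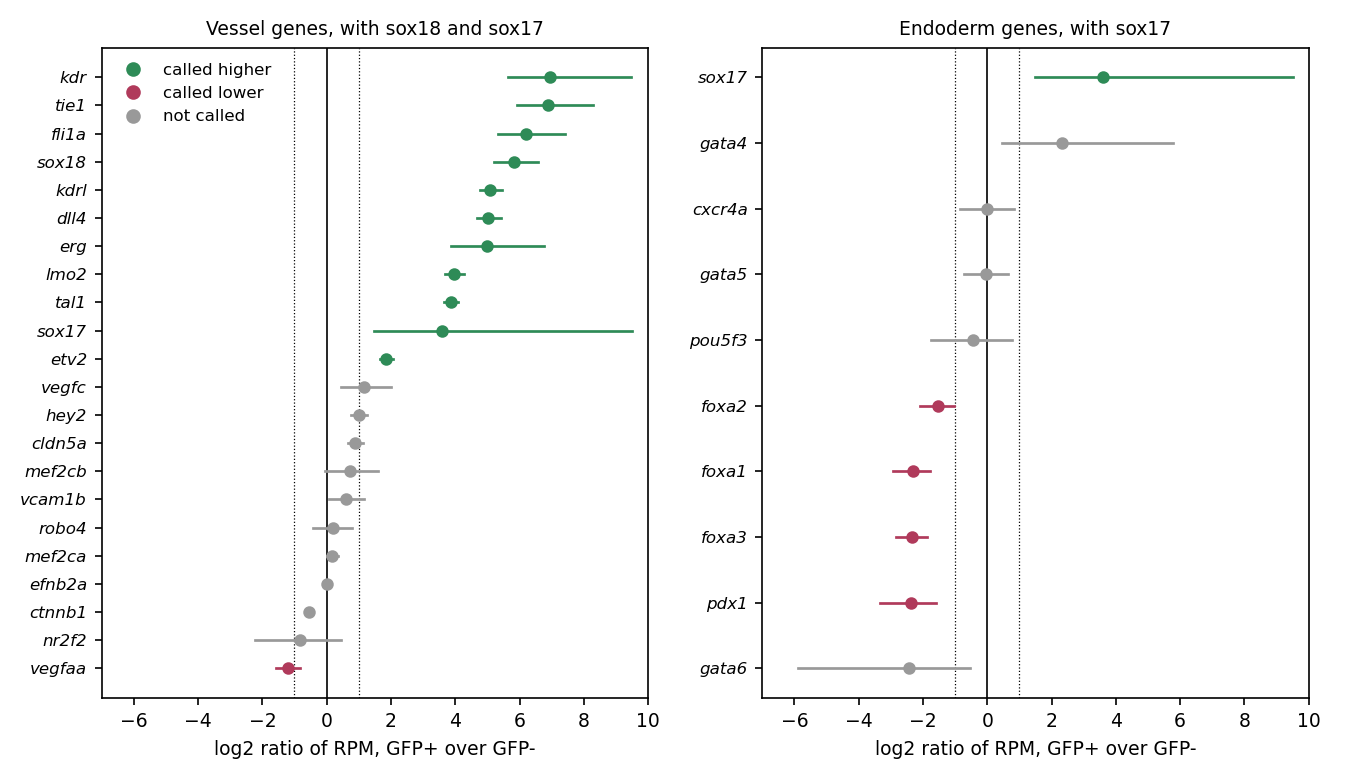
Log2 ratio of RPM, GFP+ over GFP-, for the vessel list with sox18 and sox17 (left) and the endoderm list with sox17 (right), points for the ratio and lines for the 95% interval, green for genes called higher, red for lower and grey for not called. sox18 at 5.82 lies between fli1a at 6.20 and kdrl at 5.09, and sox17 is the only gene called higher on the right, where foxa1, foxa2, foxa3 and pdx1 are called lower.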

How the data were processed

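RNA of sorted GFP+ and GFP- cells was made into TruSeq libraries, 1 per group. The authors deposited read counts per Ensembl transcript of Zv9 (uniquely mapped reads). Beside each count, the deposited RPKM scales it by transcript length and library total, and the deposited coverage is the percent of the transcript length covered. Recomputing RPKM gave the same values. The aligner and counter are not given in the sources used here, and unique mapping lowers transcripts that share sequence.

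Reads were summed per gene identifier. Log2 ratios used RPM with 0.5 reads added. Calls used Fisher's exact test, two-sided, adjusted by Benjamini and Hochberg over 22017 genes (SciPy 1.17.1). The procedure was also tested on simulated data that held counting error only, so variation between libraries was not covered. Alternatives used edgeR 4.0.16 and DESeq2 1.42.0. The floor of 3 reads was 0.675 RPM in GFP+ cells, against 0.731 RPM in GFP- cells. Symbols came from protein names, gene identifiers and RefSeq proteins.

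Named genes were all members, the highest and lowest ratio per list, regulators and targets of members, and the 3 genes nearest a member. Members and lists were chosen with earlier results of these data known. No list was tested.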

Additional observations from a re-analysis of the deposited data

How the results depend on the processing

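No paired analysis was possible because only 1 library was made per group. No fold between the libraries is reported for sox7 and sox32, whose reads were at or under the floor of 3 in both. Their ratios under the scalings were not compared. sox18 was called higher under every setting tried, with log2 ratios of 5.54 (5 reads added) to 6.17 (beta-actin scaling). sox17 was called higher under all but edgeR's exact test, which gave it a log2 ratio of 4.08. At an adjusted p threshold of 0.05, in place of 0.001, that test called 314 genes higher, 72 lower and 1 SoxF member higher. The log2 threshold alone called 4710 genes higher, 4953 lower, 3 SoxF members higher, sox7 with its 2 reads added, and 1 SoxF member, sox32 with its 1 read, lower. Beta-actin scaling called 2309 higher and 951 lower and shifted the median of all genes by 0.35 on the log2 scale, while the shift was 0.10 for TMM, 0.11 for median-of-ratios size factors and 0.10 for totals without hemoglobin reads. It gave medians of -0.94 for other Sox genes, 1.44 for vessel genes and -1.19 for endoderm genes. The vessel median was 1.48 with the most-read transcript per gene and 1.47 with a minimum of 1 read, and the endoderm median was -1.93 with a minimum of 50 reads. The log2 ratios of sox18 and sox17 and the medians of the 3 lists kept their sign under each setting run for them. The balance of calls over all genes did not: lower calls outnumbered higher ones with library totals, but higher calls outnumbered lower ones with TMM (1666 and 1416), median-of-ratios size factors (1683 and 1352), totals without hemoglobin reads (1658 and 1423) and beta-actin scaling. The values of sox7 and sox32 and the GFP- level of sox17 rest on few reads. Depth, unique mapping and blood cell content were not varied.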
